A study of Mus musculus with 9 samples.

Results

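Potassium channel genes were described in the trigeminal ganglion (TG), which holds the cell bodies of the sensory neurons of the face and jaw, after an inflammatory injection into the temporomandibular joint (TMJ). The members were chosen by name and not by their values, as the protein-coding genes whose symbol begins with Kcn and 1 further letter, in the mouse annotation GENCODE release M21 (GRCm38). There were 94 such genes of 21790 protein-coding genes, with 397 listed transcripts. Each gene's level is the sum over its transcripts in FPKM (fragments per kilobase and per mapped fragments of the library), a unit corrected for length in which genes can be compared. The name reaches beyond the pore: it takes in the auxiliary Kcnab, Kcne, Kcnip and Kcnmb subunits and Kcnrg, which is a regulator and not a channel.

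The 9 libraries came from 8-week-old male wild-type C57BL/6 mice, and each pooled TG tissue of 3 mice taken from 1 side. Saline libraries (replicates 1 to 3) followed 10 µl of saline into the TMJ and are labelled as day 3. CFA3D libraries (replicates 1 to 3) and CFA6D libraries (replicates 4 to 6) were taken on day 3 and day 6 after 10 µl of complete Freund's adjuvant (CFA, an oil emulsion that causes local inflammation) at 5 mg/ml. No saline library is labelled as day 6, so in the comparison of CFA6D with saline the injected agent and the day cannot be told apart, and both comparisons with saline share the same 3 saline libraries.

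Potassium channels let potassium leave the cell and so pull the membrane back towards rest after each impulse. In sensory neurons, A-type and delayed rectifier channels shape the impulse, Kcnq channels carry a slow current that damps repeated firing, leak channels of the Kcnk group set the resting potential, and calcium- or sodium-activated channels follow earlier activity. Glial cells around the neurons use inward rectifiers of the Kcnj group to take up potassium.

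All 15 sensory neuron markers and all 7 satellite glia markers were tested, with summed levels of 2805 to 4235 FPKM and 814 to 1159 FPKM per library, so both main cell types of the labelled tissue were present. The satellite glia list had 0 of 7 genes called against saline on either day (4.45% of all genes on day 3 and 11.1% on day 6). Depth ranged from 30.004 M to 42.2 M read pairs, and a single read pair over 1 kb of transcript equals 0.0237 to 0.0333 FPKM in these libraries. Some libraries stood apart. Saline replicate 3 held 10662 FPKM of 7 pituitary markers (Gh alone at 9120 FPKM), CFA6D replicates 4 and 5 held 1116 and 410 FPKM, and the other libraries held 9.08 to 100.1 FPKM. The sum of 5 oligodendrocyte markers, a list added after values had been seen, was 469 FPKM in saline replicate 3, 48.1 FPKM in CFA6D replicate 4 and 186 to 299 FPKM elsewhere. The 7 skeletal muscle markers summed to 39.4, 166 and 74.6 FPKM in saline replicates 1 and 2 and CFA6D replicate 6, against 1.27 to 9.40 FPKM elsewhere, and 5 erythroid markers to 5789 FPKM in saline replicate 2 against 1667 to 3862 FPKM elsewhere. A principal component analysis of all tested genes put CFA6D replicate 6 apart on its first axis (66.4, with everything else from -21.4 to 3.68). Counts of calls are therefore also given without saline replicate 3 and CFA6D replicate 4, without saline replicate 2 and without CFA6D replicate 6.

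Of the 94 genes, 8 averaged 20 FPKM or more across the 9 libraries, 27 lay from 5 to 20 FPKM, 30 from 1 to 5 FPKM and 20 from 0.1 to 1 FPKM. The most abundant were Kcna1 at 71.1 FPKM and Kcna2 at 47.7 FPKM, delayed rectifier subunits that sit beside the nodes of myelinated axons. Others in this class were the auxiliary subunit gene Kcnip3 at 45.8 FPKM, the leak channel gene Kcnk1 at 38.1 FPKM, the auxiliary Kcnab2 at 30.6 FPKM, the sodium-activated Kcnt1 at 27.5 FPKM and the A-type Kcnd1 at 21.5 FPKM. The remaining 9 genes (Kcnh4, Kcne2, Kcna7, Kcnv2, Kcnj5, Kcnk15, Kcnk16, Kcne1 and Kcnj1) had means under 0.1 FPKM and were not tested. The median of the 85 tested members was 3.47 FPKM, against 5.84 FPKM over all 16110 genes tested, and 28 members lay above that overall median.

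**Figure D1:**
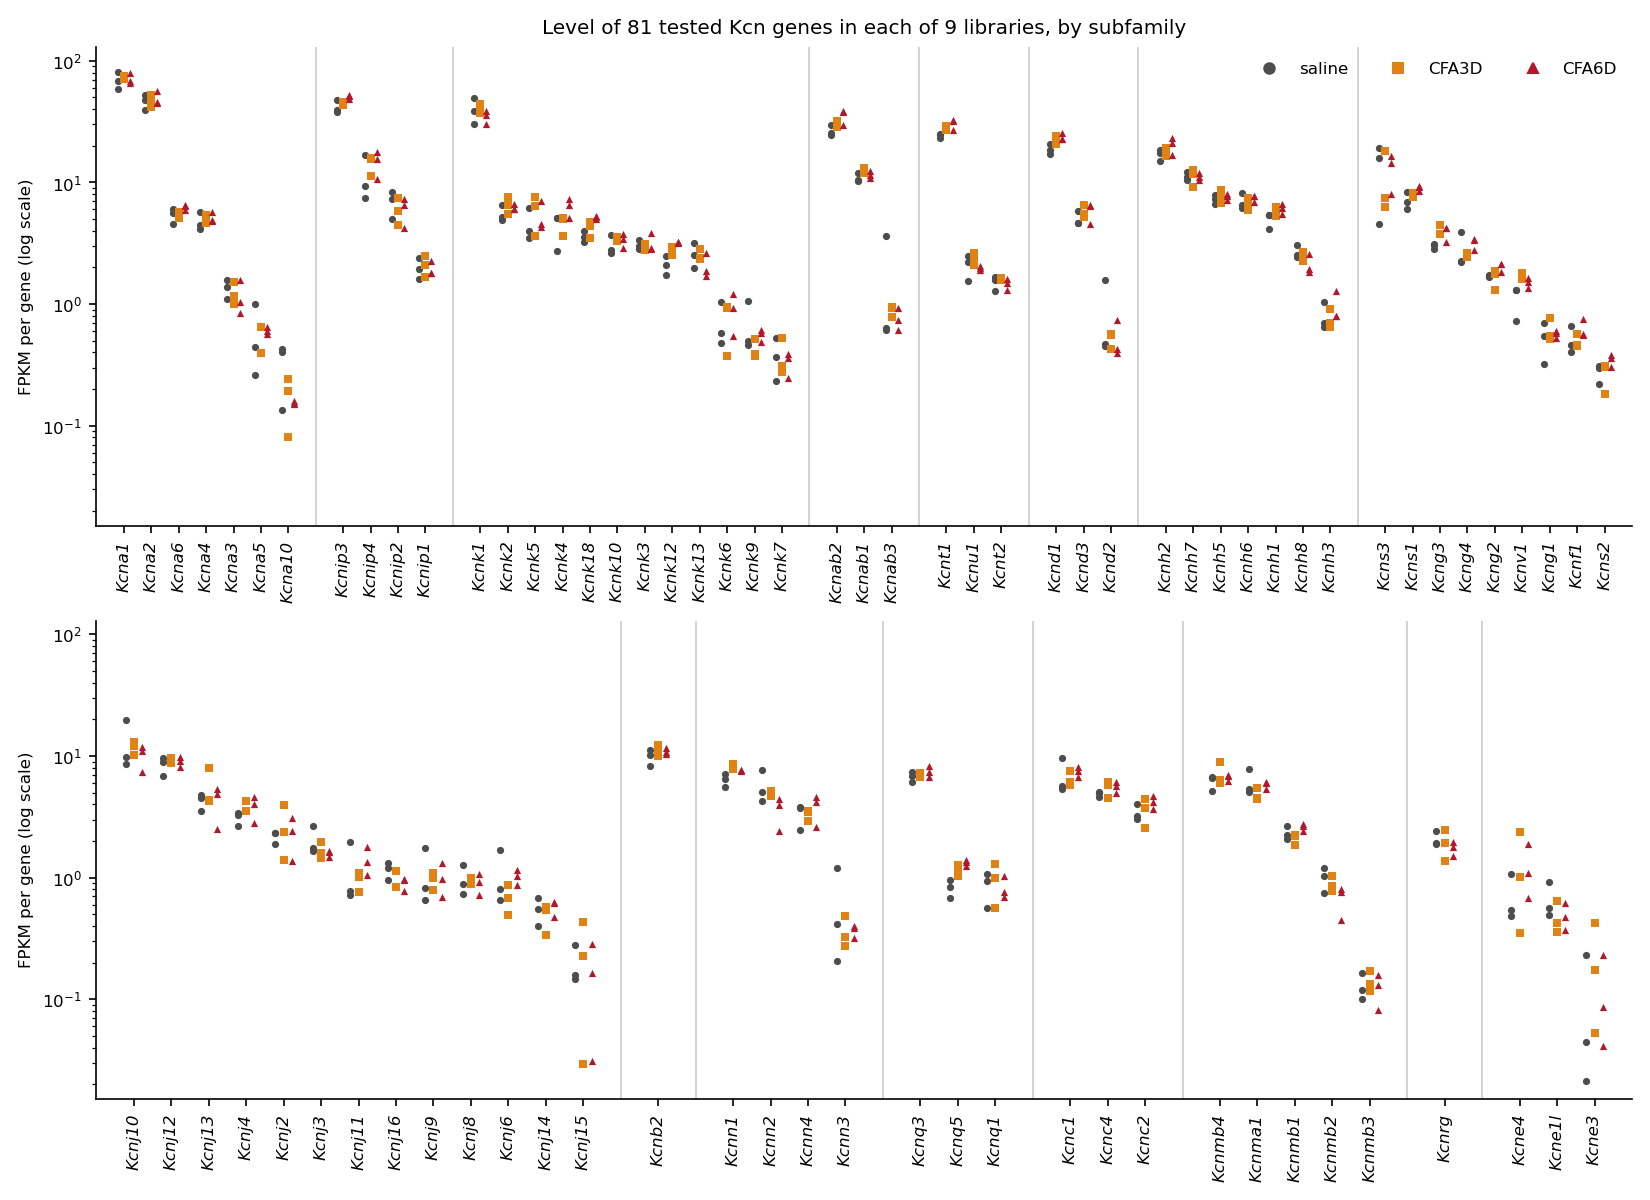
Level of 81 tested Kcn genes in FPKM (log axis), grouped by subfamily and ordered by mean within it, with 1 point per library (circles saline, squares CFA3D, triangles CFA6D, 3 libraries each). Levels span from 71.1 FPKM for Kcna1 to near 0.1 FPKM, and for most genes the 3 groups overlap.

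Neighbouring members could differ widely in level. On chromosome 3, Kcna3 (mean 1.24 FPKM), Kcna2 (47.7 FPKM) and Kcna10 (0.216 FPKM) lie in a row with gaps of 63.1 and 68.1 kb. On chromosome 6 the row is Kcna5 (0.580 FPKM), Kcna1 (71.1 FPKM) and Kcna6 (5.74 FPKM), with gaps of 105 and 61.9 kb. In each row the middle gene was the most abundant in every library. The sequence just before the RefSeq transcription start (build GRCm38.p6) is shown for the row on chromosome 3 because these neighbours differ so much in level. Each is the part of the 250 bases before the start that lies outside annotated exons, with CG dinucleotides in capitals: chr3:107035912-107036161, chr3:107101395-107101566 and chr3:107182893-107183055, all on the plus strand. In GENCODE M21 the Kcna2 gene starts earlier, at 107101146, so its printed stretch lies inside the gene and between annotated exons.
Kcna3: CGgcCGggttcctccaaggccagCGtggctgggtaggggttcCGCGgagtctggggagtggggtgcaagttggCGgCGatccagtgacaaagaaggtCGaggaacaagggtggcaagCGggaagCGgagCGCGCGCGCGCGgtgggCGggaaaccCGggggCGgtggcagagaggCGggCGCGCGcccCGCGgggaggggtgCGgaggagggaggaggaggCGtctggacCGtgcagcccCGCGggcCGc
Kcna2: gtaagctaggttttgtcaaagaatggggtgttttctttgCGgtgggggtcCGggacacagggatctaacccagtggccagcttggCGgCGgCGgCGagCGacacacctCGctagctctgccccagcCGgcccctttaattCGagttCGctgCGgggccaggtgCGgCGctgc
Kcna10: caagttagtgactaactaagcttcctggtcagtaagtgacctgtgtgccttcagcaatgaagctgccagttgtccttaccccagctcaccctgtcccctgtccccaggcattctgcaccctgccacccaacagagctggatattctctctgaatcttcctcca
The printed stretches are 250, 172 and 163 bases long and hold 31, 14 and 0 CG dinucleotides in this order. The whole windows of 250 bases hold 31, 18 and 0. Either way, the count did not follow the order of the levels within the row.

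Windows of 250 bases before the start were matched for 69 of the 94 members, taking for each gene the window nearest to the start of its most abundant transcript. The median was 8 CG dinucleotides per window, against 6 over all 32851 windows of the same length. For the 26 matched members of at least 5 FPKM the median was 15.5, for the 23 from 1 to 5 FPKM it was 7, for the 13 from 0.1 to 1 FPKM it was 6, and for the 7 under 0.1 FPKM it was 7. The letters TATAAA occurred on either strand in 2 member windows (Kcnj13 and Kcnj9), or 2.90% of members against 12.4% of all windows. The cyclic AMP response element TGACGTCA, which reads alike on both strands, occurred in 0 member windows and in 1.55% of all windows. These counts describe letters in a window and were not set against the injection.

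On day 6, 15 of the 85 tested members differed from saline at an unadjusted p under 0.05 (limma, 3 libraries a group), of which 14 rose and 1 fell. Over all genes tested, 11.1% were called in this comparison, 8.21% higher and 2.85% lower, against 17.6% of the members. The median log2 fold change was 0.15 for the members and 0.03 for all genes. The genes that rose included Kcnk12, Kcnt1, Kcnk18, Kcnab2, Kcnq5, Kcnd1, Kcnip3, Kcns1, Kcng3, Kcnn1 and Kcnk4, and Kcnn2 fell. The changes were small, from 0.26 to 0.64 in size on the log2 scale, and 0 members reached a log2 fold change of 1, which 0.596% of all genes did while being called. No member passed after Benjamini-Hochberg adjustment in limma, nor did any of the 16110 genes, of which 1782 had an unadjusted p under 0.05. In 16 members (18.8%) the 2 groups did not overlap, all of them higher on day 6, against 16.2% of all genes in either direction and 10.7% higher. Because these are bulk samples, fewer cells of a type and less RNA per cell cannot be told apart. Sensory neuron markers moved as well: 6 of 15 rose on day 6 and their median log2 fold change was 0.19, with sums of 2805 to 3529 FPKM in saline and 3526 to 4235 FPKM on day 6. Macrophage markers were lower, with sums of 88.0 to 108 FPKM in saline and 50.9 to 82.7 FPKM on day 6, a median log2 fold change of -0.35, and 1 of 7 genes called lower. Of 5 fibroblast markers 2 were called lower (Dcn and Lum), with a median of -0.12 and overlapping sums of 397 to 495 FPKM and 299 to 508 FPKM. The part of these marker genes in the changes of the channel genes was not tested.

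On day 3, 8 of 85 members passed the same test, or 9.41% against 4.45% of all genes. All of them rose, among them Kcnn1, Kcnv1, Kcng3, Kcnq5, Kcnd1, Kcnk12 and Kcnt1, where 3.64% of all genes were called higher. The median log2 fold change was 0.06 for the members and 0.05 for all genes. Every member's adjusted p was at least 0.997 in limma, and 0 of the 16110 genes passed after adjustment, with 717 at an unadjusted p under 0.05. In 10 members (11.8%) the groups did not overlap, all of them higher on day 3, against 9.13% of all genes in either direction and 7.01% higher. A called log2 fold change of 1 or more was met by 0 members and 0.341% of all genes. Of the sensory neuron markers 3 of 15 rose on day 3, with sums of 3336 to 3972 FPKM and a median log2 fold change of 0.20.

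Between the 2 days after CFA, 2 of 85 members were called (2.35%), against 7.41% of all genes, 3.07% higher. Both were higher on day 6. Over all genes 0 passed after adjustment and 1193 had an unadjusted p under 0.05, and a called change of 1 or more was met by 0 members and 0.782% of genes.

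**Figure D2:**
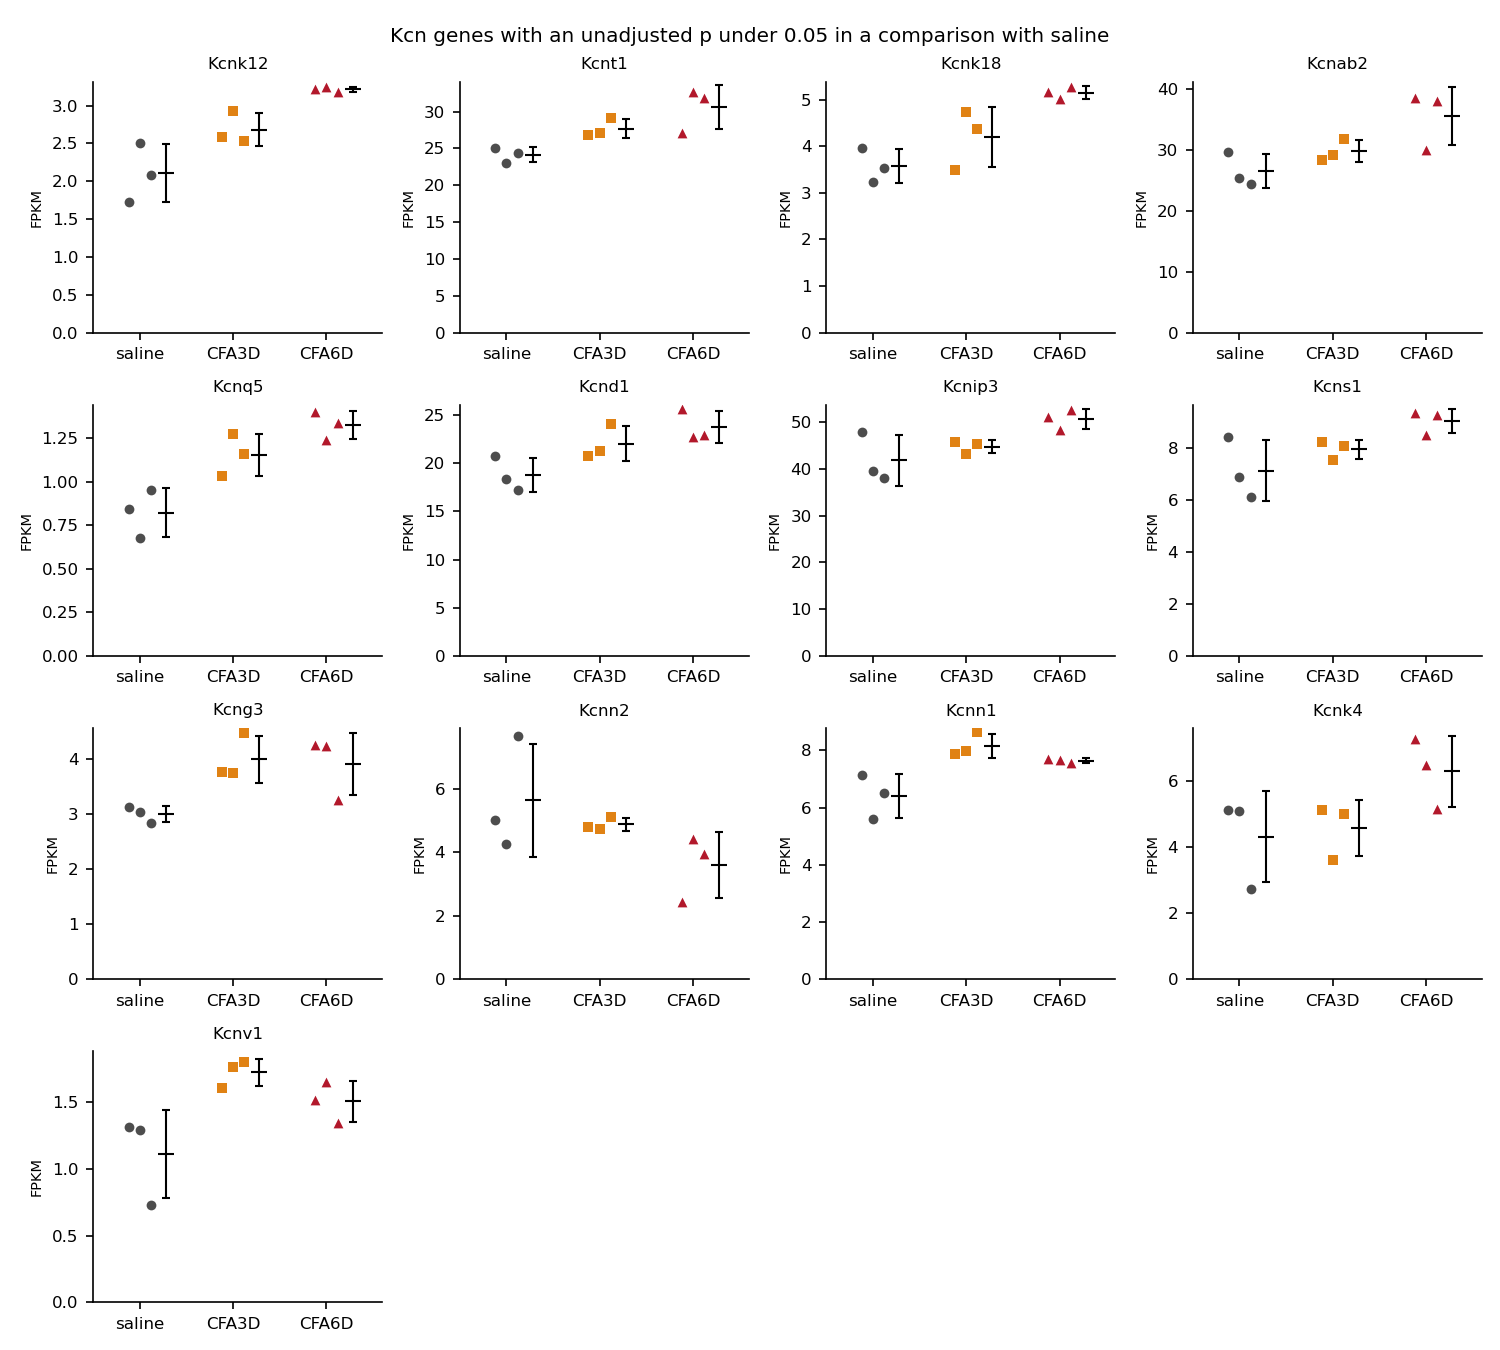
Level in FPKM (axes from 0) of 13 Kcn genes with an unadjusted p under 0.05 in a comparison with saline, with 1 point per library (circles saline, squares CFA3D, triangles CFA6D) and the mean ± SD (n = 3) beside each group. In 12 of the 13 panels the mean of the CFA6D libraries lies above that of saline, and Kcnn2 is the exception.

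The Kcnq genes encode the M-type channels, which oppose repeated firing. Kcnq5 (chr1:21398403-21961942, minus strand) read 0.844, 0.675 and 0.952 FPKM in saline, 1.03, 1.27 and 1.16 FPKM on day 3 and 1.40, 1.24 and 1.34 FPKM on day 6. Saline did not overlap with either day, and the log2 fold changes were 0.45 ± 0.18 (SE) and 0.64 ± 0.18 (adjusted p = 0.997 and 0.231, limma). On day 3 its call was lost without saline replicate 1 (0.47) or 2 (0.33) or CFA3D replicate 2 (0.38) or 3 (0.45). Kcnq3, a subunit of the M-channel of most neurons, read 7.44, 6.09 and 6.84 FPKM in saline, 6.83, 6.76 and 7.25 FPKM on day 3 and 6.75, 7.38 and 8.29 FPKM on day 6. Its groups overlapped, and it was not called (0.04 ± 0.11 and 0.14 ± 0.11). The epithelial and cardiac Kcnq1 ran from 0.564 to 1.28 FPKM, both within CFA3D, with group means of 0.855, 0.945 and 0.825 FPKM, and was not called.

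Delayed rectifiers of the Kcnb group carry much of the sustained outward current of neurons. Kcnb2 read 11.1, 10.2 and 8.30 FPKM in saline, 9.96, 10.49 and 12.3 FPKM on day 3 and 10.7, 11.6 and 10.3 FPKM on day 6. Its groups overlapped, and it was not called, with 0.15 ± 0.13 on both days.

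Silent subunits of the Kcnf, Kcng, Kcns and Kcnv groups form no channel alone and modify Kcnb channels when they join them. Kcns1 (chr2:164163619-164171113) read 8.41, 6.87 and 6.09 FPKM in saline, 8.22, 7.53 and 8.07 FPKM on day 3 and 9.32, 8.49 and 9.24 FPKM on day 6. The day 6 libraries were the highest, though the lowest of them was within 0.1 FPKM of saline replicate 1. Its log2 fold change on day 6 was 0.35 ± 0.12, and the call was lost without saline replicate 3 (0.24) or without CFA6D replicate 4 (0.32). Kcng3 read 3.14, 3.04 and 2.84 FPKM in saline, 3.77, 3.75 and 4.49 FPKM on day 3 and 4.26, 4.24 and 3.26 FPKM on day 6. All saline libraries lay below all CFA libraries, with log2 fold changes of 0.40 ± 0.14 and 0.36 ± 0.14. Its calls were lost without saline replicate 3 on both days, without CFA3D replicate 3 on day 3, and without saline replicate 2 or CFA6D replicate 4 or 5 on day 6 (0.30 to 0.37). Kcnv1 read 1.32, 1.29 and 0.729 FPKM in saline, 1.61, 1.76 and 1.81 FPKM on day 3 and 1.52, 1.65 and 1.35 FPKM on day 6. Here saline replicate 3 was the lowest library, and without it the day 3 log2 fold change went from 0.63 ± 0.22 to 0.38 and was no longer called, as without CFA3D replicate 3 (0.60). The most abundant silent subunit gene, Kcns3, varied widely within groups, at 19.2, 15.8 and 4.56 FPKM in saline, 7.48, 6.28 and 18.1 FPKM on day 3 and 7.98, 14.4 and 16.6 FPKM on day 6, and its groups overlapped throughout.

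A-type channels open early and delay the next impulse. Kcnd1 (chrX:7822289-7838280) read 20.7, 18.4 and 17.3 FPKM in saline, 20.8, 21.3 and 24.1 FPKM on day 3 and 25.6, 22.7 and 22.9 FPKM on day 6. Saline lay below both days, on day 3 by less than 0.1 FPKM at the nearest point, with log2 fold changes of 0.23 ± 0.10 and 0.34 ± 0.10 (adjusted p = 0.997 and 0.232, limma). On day 3 the call was lost without saline replicate 2 (0.22) or 3 (0.17), CFA3D replicate 2 (0.26) or 3 (0.17) or CFA6D replicate 6, and on day 6 it was lost (0.22) without saline replicate 3 and CFA6D replicate 4 together. Kcnd3 was not called (0.18 ± 0.17 and 0.20 ± 0.17, mean 5.53 FPKM). Kcnip3, a calcium-binding partner of Kcnd channels, read 48.0, 39.5 and 38.0 FPKM in saline, 45.8, 43.1 and 45.3 FPKM on day 3 and 51.2, 48.4 and 52.7 FPKM on day 6. The lowest day 6 library was close above saline replicate 1, and the log2 fold change was 0.28 ± 0.09 on day 6, or 0.22 and no longer called without saline replicate 3. The related Kcnip4 (13.4 FPKM), Kcnip2 (6.25 FPKM) and Kcnip1 (2.01 FPKM) were not called, and the 3 saline values of Kcnip4 alone ran from 7.43 to 16.7 FPKM.

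In the Kcna group 0 of 7 tested members were called on either day, where 4.45% of all genes were called on day 3 and 11.1% on day 6. With 7 genes, 0 calls do not set the group apart from those shares. Kcna1 read 81.0, 67.8 and 59.2 FPKM in saline, 75.04, 72.2 and 70.4 FPKM on day 3 and 79.9, 68.8 and 65.3 FPKM on day 6. The saline libraries spanned both other groups, and the log2 fold changes were 0.08 ± 0.12 and 0.05 ± 0.12. Kcna2 gave 0.03 ± 0.13 and 0.09 ± 0.13. Kcna4, an A-type member, gave 0.05 ± 0.14 and 0.12 ± 0.14, and Kcna6 gave 0.02 ± 0.12 and 0.23 ± 0.12. Their cytoplasmic partner Kcnab2 (chr4:152390742-152477871) did rise on day 6. Its libraries read 29.7, 25.4 and 24.4 FPKM in saline, 28.3, 29.1 and 31.8 FPKM on day 3 and 38.5, 29.95 and 38.1 FPKM on day 6. CFA6D replicate 5 was barely above saline replicate 1, and the other 2 day 6 libraries stood well above all others. The day 6 log2 fold change was 0.42 ± 0.12 (adjusted p = 0.227, limma), and 0.30 without a call when saline replicate 3 and CFA6D replicate 4 were both left out. Kcnab2 shares same-strand exon positions with Gm16334. Kcnab1 was not called, at 0.20 ± 0.09 on day 3 and 0.11 ± 0.09 on day 6.

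Kcnc channels switch on at strong depolarization and serve fast firing. Kcnc1, Kcnc2 and Kcnc4 were not called, with day 6 values of 0.16 ± 0.21, 0.29 ± 0.21 and 0.18 ± 0.14. In the Kcnh group (the eag, erg and elk channels) 0 of 7 tested members were called against saline (4.45% of all genes on day 3 and 11.1% on day 6). Its most abundant gene, Kcnh2, read 17.6, 15.04 and 18.4 FPKM in saline, 17.4, 16.6 and 19.1 FPKM on day 3 and 23.1, 16.7 and 21.3 FPKM on day 6, with overlapping groups and a log2 fold change of 0.25 ± 0.13 on day 6.

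Among the leak channels, 1 of 12 tested Kcnk members was called on day 3 (4.45% of all genes) and 3 on day 6 (11.1% of all genes). Kcnk18, a leak channel of trigeminal and other sensory neurons that is tied to familial migraine, read 3.96, 3.23 and 3.54 FPKM in saline, 3.48, 4.73 and 4.37 FPKM on day 3 and 5.16, 5.00 and 5.27 FPKM on day 6. The day 6 libraries lay close together and above all others, with a log2 fold change of 0.52 ± 0.14 (adjusted p = 0.197, limma) against 0.22 ± 0.14 on day 3. Kcnk12, whose product gives little or no current by itself, read 1.73, 2.51 and 2.09 FPKM in saline, 2.59, 2.93 and 2.53 FPKM on day 3 and 3.22, 3.24 and 3.18 FPKM on day 6. All day 6 libraries exceeded all day 3 libraries, which in turn exceeded saline. The log2 fold changes were 0.35 ± 0.15 and 0.60 ± 0.15 (adjusted p = 0.997 and 0.185, limma), and 105 to 250 read pairs per library stood behind the single Kcnk12 transcript. Without saline replicate 1 the day 3 value of Kcnk12 was 0.22, and the day 3 call was lost without any 1 library except saline replicate 2 (0.22 to 0.39).

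Kcnk4, a leak channel opened by stretch and heat, read 5.12, 5.09 and 2.73 FPKM in saline, 5.10, 3.60 and 5.01 FPKM on day 3 and 7.27, 6.47 and 5.14 FPKM on day 6. CFA6D replicate 6 equalled saline replicates 1 and 2 to within 0.1 FPKM, and saline replicate 3 was the lowest library. The day 6 log2 fold change of 0.58 ± 0.25 became 0.28, without a call, when saline replicate 3 was left out. The call was also lost without CFA6D replicate 4 (0.47) or 5 (0.55) or CFA3D replicate 1 or 3, and Kcnk4 shares same-strand exon positions with Catsperz. Not called were Kcnk1, the most abundant leak channel gene, with 49.9, 38.5 and 30.04 FPKM in saline and day 6 libraries at 38.9, 36.1 and 29.99 FPKM, and Kcnk2, Kcnk3, Kcnk9 and Kcnk10, whose day 6 values were 0.17 ± 0.14, 0.05 ± 0.15, -0.15 ± 0.30 and 0.15 ± 0.16.

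Upstream sequence is also shown for Kcnq5 (chr1:21961943-21962192, minus strand) and Kcnk12 (chr17:87797995-87798244, minus strand), which had the largest day 6 changes among the members whose call held without any 1 library, again with CG in capitals.
Kcnq5: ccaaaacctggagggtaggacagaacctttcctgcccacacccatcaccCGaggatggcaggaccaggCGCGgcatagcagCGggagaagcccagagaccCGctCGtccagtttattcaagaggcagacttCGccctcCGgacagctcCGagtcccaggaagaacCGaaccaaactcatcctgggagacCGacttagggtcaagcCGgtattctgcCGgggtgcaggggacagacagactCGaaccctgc
Kcnk12: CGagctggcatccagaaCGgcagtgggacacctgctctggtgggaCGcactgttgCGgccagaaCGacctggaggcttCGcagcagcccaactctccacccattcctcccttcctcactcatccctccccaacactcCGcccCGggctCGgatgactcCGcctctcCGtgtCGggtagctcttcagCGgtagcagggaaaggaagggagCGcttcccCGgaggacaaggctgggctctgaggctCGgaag
They held 14 and 16 CG dinucleotides, and neither held TATAAA or TGACGTCA on either strand.

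Calcium- and sodium-activated channels couple excitability to earlier activity. Kcnt1 (chr2:25863734-25918273), the sodium-activated channel, read 25.02, 23.0 and 24.4 FPKM in saline, 26.8, 27.1 and 29.2 FPKM on day 3 and 27.2, 32.7 and 31.8 FPKM on day 6. Saline lay below both days in all libraries, with log2 fold changes of 0.20 ± 0.09 and 0.33 ± 0.09 (adjusted p = 0.997 and 0.192, limma). The day 3 call held only without saline replicate 1 or CFA6D replicate 4 and was lost without any other 1 library (0.16 to 0.22). The related Kcnt2 gave 0.10 ± 0.16 and -0.03 ± 0.16 at a mean of 1.53 FPKM. Kcnn1, a small-conductance calcium-activated channel, read 7.12, 5.59 and 6.50 FPKM in saline, 7.86, 7.98 and 8.63 FPKM on day 3 and 7.70, 7.67 and 7.56 FPKM on day 6. Saline lay below both days, and Kcnn1 was the member with the smallest p on day 3 (0.35 ± 0.10). On day 6 the value was 0.26 ± 0.10, and 0.17 without a call when saline replicate 2 was left out. Leaving out saline replicate 3 or any 1 of the CFA6D replicates also ended that call (0.25 to 0.27).

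Kcnn2, the closely related small-conductance channel, was the only called member that was lower than saline. It read 5.02, 4.26 and 7.66 FPKM in saline, 4.80, 4.73 and 5.12 FPKM on day 3 and 2.44, 4.43 and 3.95 FPKM on day 6. The highest library was saline replicate 3 and the lowest CFA6D replicate 4, the same libraries that were highest and lowest in oligodendrocyte markers (469 and 48.1 FPKM), and saline and day 6 overlapped. The log2 fold change on day 6 was -0.63 ± 0.25 (adjusted p = 0.398, limma). It was -0.39 without saline replicate 3, -0.38 without CFA6D replicate 4 and -0.14 without both, and in none of these was it called. Kcnn4 (0.17 ± 0.23 on day 6), Kcnma1, the large-conductance calcium-activated channel (-0.05 ± 0.17), and its subunit gene Kcnmb4 (0.12 ± 0.16) were not called, and Kcnma1 had its highest value, 7.87 FPKM, in saline replicate 3.

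In the Kcnj group 0 of 13 tested inward rectifiers were called against saline (4.45% of all genes on day 3 and 11.1% on day 6). Kcnj10, the main potassium uptake channel of satellite glia and also of oligodendrocytes, read 9.83, 8.64 and 19.6 FPKM in saline, 10.1, 13.0 and 11.98 FPKM on day 3 and 7.37, 10.9 and 11.9 FPKM on day 6. As for Kcnn2, saline replicate 3 was the highest library and CFA6D replicate 4 the lowest, and the part of the oligodendrocyte markers in either gene was not tested. The log2 fold changes were -0.02 ± 0.29 and -0.26 ± 0.29. Kcnj3 and Kcnj6, subunits of the channels that G proteins open, had their highest values in saline replicate 3 as well (2.67 and 1.68 FPKM), with day 6 log2 fold changes of -0.30 ± 0.21 and 0.06 ± 0.33. Of the small auxiliary Kcne genes, Kcne4 ran from 0.351 FPKM in CFA3D replicate 3 to 2.39 FPKM in CFA3D replicate 2, and Kcnrg had means of 2.08, 1.91 and 1.76 FPKM. Neither was called.

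Saline replicate 3 was the highest of the 9 libraries for 20 of the 85 tested members. No such count was made over all genes. That library also stood apart over all tested genes on the second principal component (45.8, with everything else from -29.6 to 13.3). By the ratio to the next library, the widest lead of saline replicate 3 was in Kcnab3, an auxiliary subunit gene, at 3.66 FPKM against 0.609 to 0.949 FPKM in the other 8 libraries. Kcnn3 (1.20 against at most 0.481 FPKM), Kcnd2 (1.58 against at most 0.739 FPKM) and Kcnk9 (1.05 against at most 0.613 FPKM) came next. Without saline replicate 3 and CFA6D replicate 4, 12 members passed the test on day 6, 10 of them higher, or 14.1% against 10.2% of all genes in that fit (7.14% higher). On day 3, 6 passed, 5 of them higher, or 7.06% against 4.12% (2.81% higher). Of the 15 day 6 calls, 7 then still passed, among them Kcnk12, Kcnt1, Kcnk18 and Kcnq5. When 1 library at a time was left out, 8 of the 15 day 6 calls held every time, among them Kcnk12, Kcnt1, Kcnk18, Kcnab2, Kcnq5 and Kcnd1. Of the 8 day 3 calls, Kcnn1 alone did. How many of the calls over all genes held in these fits was not counted. Without saline replicate 2, 15 members passed on day 6 (17.6% against 8.92% of all genes) and 4 on day 3 (4.71% against 3.37%), and without CFA6D replicate 6, 14 passed on day 6 (16.5% against 9.17%). Scaling moved the split over all genes: on day 6, 1323 of 1782 calls were higher as deposited, 992 of 1978 with quantile normalization and 1218 of 1912 with equal FPKM sums, where 14 of 15, 11 of 12 and 13 of 14 member calls were higher.

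**Figure D3:**
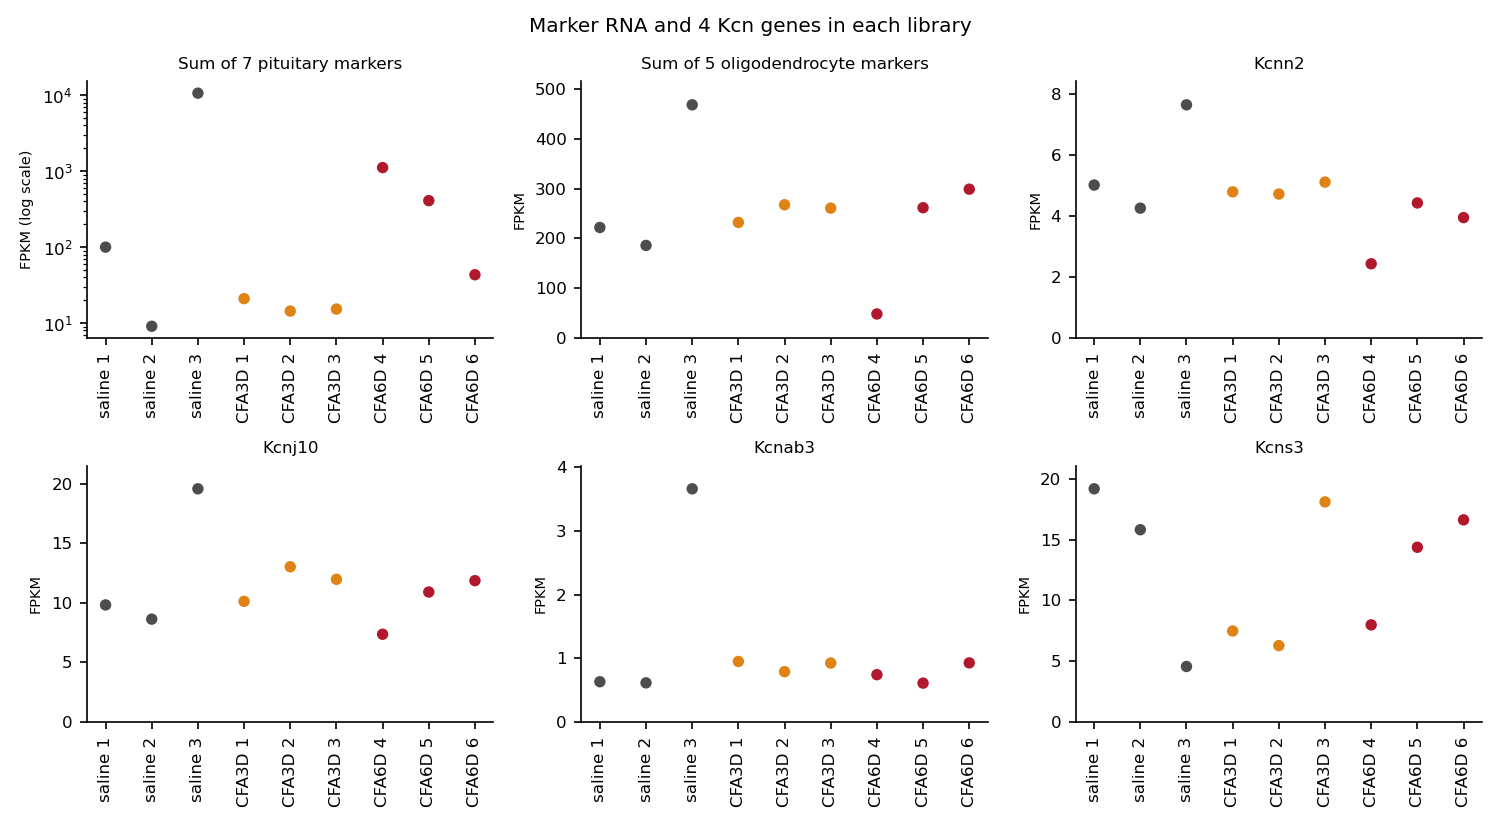
Summed FPKM of 7 pituitary markers (log axis) and of 5 oligodendrocyte markers, and FPKM of Kcnn2, Kcnj10, Kcnab3 and Kcns3, in each of the 9 libraries (dark saline, orange CFA3D, red CFA6D). Kcnn2, Kcnj10 and the oligodendrocyte sum share their highest library, saline replicate 3, and their lowest, CFA6D replicate 4, Kcnab3 stands out in saline replicate 3 at 3.66 FPKM, and Kcns3 is spread within all groups.

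**Figure D4:**
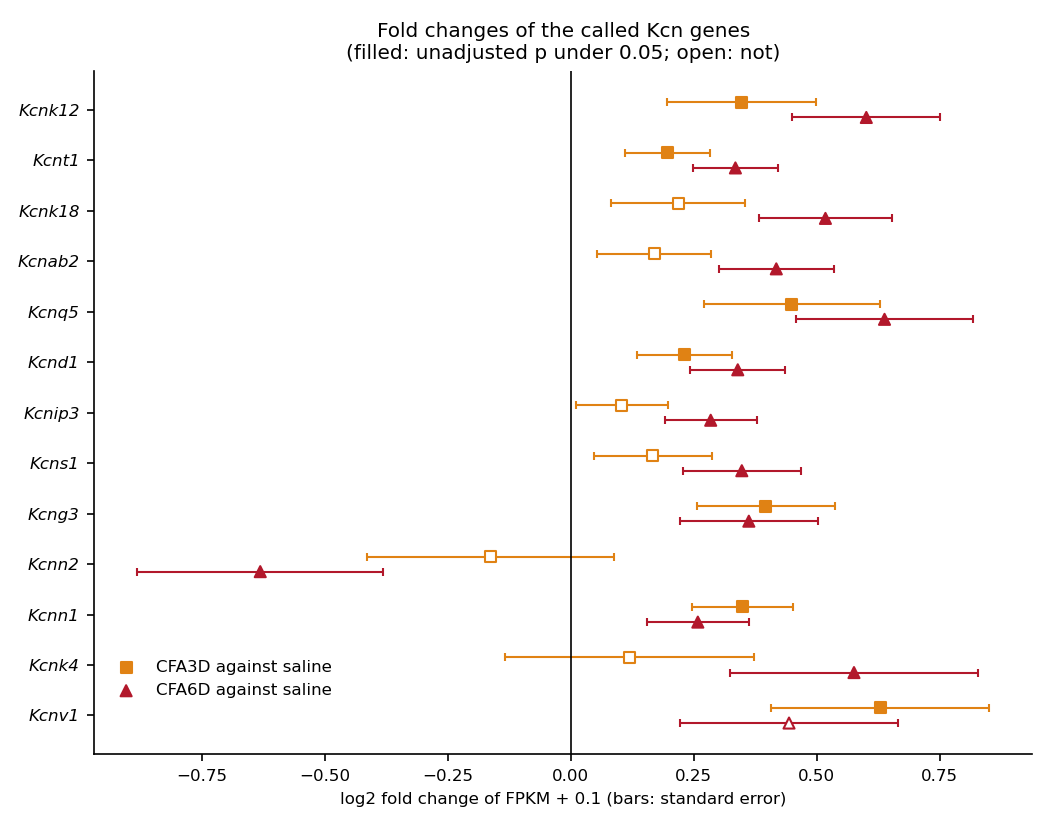
Log2 fold change against saline of 13 called Kcn genes, ordered by their p on day 6, with the standard error from limma (squares CFA3D, triangles CFA6D, filled where the unadjusted p was under 0.05). All estimates on both days lie above 0 except those of Kcnn2, and none reaches 1 in size. Both comparisons use the same saline libraries.

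Single transcripts were tested as well, 246 of the 397 having a mean of at least 0.1 FPKM. On day 3, 16 passed, or 6.50% against 4.68% of all 66562 transcripts tested, and 12 of them were higher (2.88% of all). On day 6, 22 passed, or 8.94% against 6.81%, and 17 were higher (4.14% of all). Between the days 8 passed, or 3.25% against 5.42%, and 7 were higher (2.46% of all). After adjustment 0 of the member transcripts passed in any comparison (limma), where 0.0255%, 0.0195% and 0.015% of all transcripts did. Transcripts are named by the ENSMUST numbers of the deposited table.

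The most abundant Kcnn2 transcript, the protein-coding ENSMUST00000211323, also fell on day 6, with 2.39, 1.81 and 3.93 FPKM in saline, 1.93, 2.62 and 2.17 FPKM on day 3 and 0.263, 1.41 and 0.310 FPKM on day 6. The 3 day 6 libraries lay below the other 6, and 17.9 to 273 read pairs per library stood behind these values. The log2 fold change was -0.20 ± 0.52 on day 3, -2.14 ± 0.52 on day 6 and -1.93 ± 0.52 between the days. The day 6 value was -1.47, still called, without saline replicate 3 and CFA6D replicate 4. Of the other 5 tested Kcnn2 transcripts, the minor ENSMUST00000183623 fell as well (-1.01 at a mean of 0.138 FPKM), and the protein-coding ENSMUST00000183850 had a day 6 value of 1.21 in the other direction without being called.

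Of the 2 tested Kcnq5 transcripts, 1 rose. This was ENSMUST00000029667, which read 0.102, 0.0115 and 0.562 FPKM in saline, 0.753, 0.991 and 0.790 FPKM on day 3 and 0.993, 0.800 and 0.683 FPKM on day 6. Saline lay below all CFA libraries, with 2.27 read pairs in the lowest library and 257 in the highest. The log2 fold changes were 1.93 ± 0.56 and 1.90 ± 0.56. The longer ENSMUST00000115300, named after its values were seen, was not called and had values of -0.73 and -0.72.

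Kcnt1 had 15 transcripts, and the most abundant, the retained-intron ENSMUST00000131529, took 23.4% of the gene's level. Neither it (0.20 and 0.23 on the log2 scale) nor the protein-coding ENSMUST00000037580 (0.48 and 0.56) was called against saline. The retained-intron ENSMUST00000114170 was called between the days, at 0.464, 0.434 and 0.539 FPKM in saline, 0.450, 0.237 and 0.482 FPKM on day 3 and 0.812, 0.636 and 0.741 FPKM on day 6. The day 6 libraries lay above the other 6, with 15.7 to 53.5 read pairs per library and a log2 fold change of 0.80 ± 0.27 from day 3 to day 6. The call was lost without CFA3D replicate 2 (0.55) or CFA6D replicate 4 (0.72).

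Other transcripts with the smallest p are given by comparison. On day 3 they included ENSMUST00000234613 of Kcng3 (0.54 ± 0.16), ENSMUST00000129246 of Kcnh2 (0.78 ± 0.27, 8.45 to 38.9 read pairs) and ENSMUST00000223847 of Kcnma1 (-1.59 ± 0.54), a retained-intron form at 0 in CFA3D replicates 1 and 3. The Kcnh2 form was at 0.48 without saline replicate 2, and its call was lost without CFA3D replicate 1 or 2. The call of the Kcnma1 form was lost without saline replicate 3 (-1.15) or CFA3D replicate 1 or 3 (-1.33). On day 6 they included ENSMUST00000055221 of Kcnk12 (0.60 ± 0.16). Between the days they were ENSMUST00000103215 of Kcnip3 (0.57 ± 0.20), ENSMUST00000128137 of Kcna6 (0.78 ± 0.29) and ENSMUST00000087965 of Kcnmb4 (0.61 ± 0.24). The Kcnip3 form was at 0.33 without CFA3D replicate 2, and its call was lost without CFA6D replicate 6 (0.53). The Kcna6 form lost its call without CFA3D replicate 2 (0.56) or 3 or CFA6D replicate 5 or 6, and the Kcnmb4 form without CFA3D replicate 1 or 3 (0.53) or CFA6D replicate 4 or 5.

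**Figure D5:**
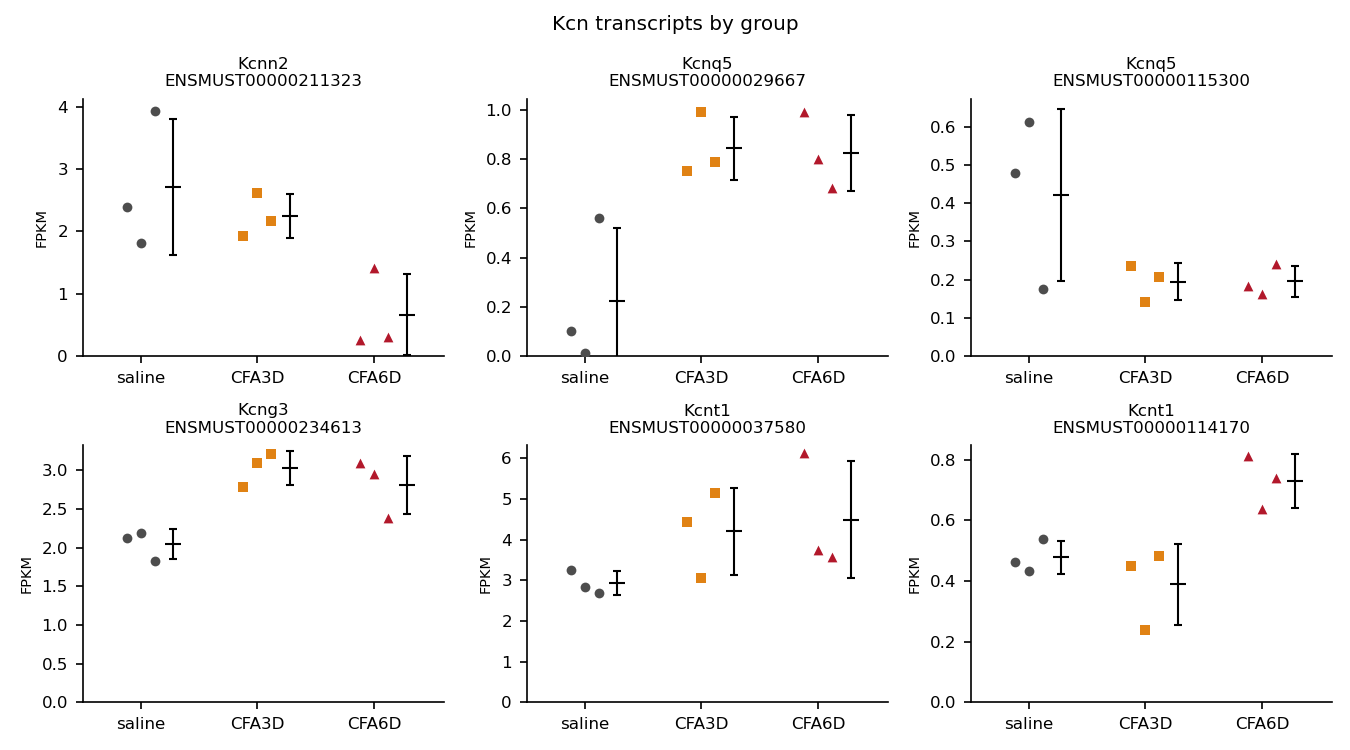
FPKM of 6 Kcn transcripts (axes from 0) with 1 point per library (circles saline, squares CFA3D, triangles CFA6D) and the mean ± SD (n = 3) beside each group. ENSMUST00000211323 of Kcnn2 is lowest on day 6, and ENSMUST00000029667 of Kcnq5 is higher and ENSMUST00000115300 lower in the CFA libraries than in saline replicates 1 and 2.

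Genes that work with these channels were read in the same fit. Of 30 tested partner genes outside the Kcn symbols (anchoring, auxiliary and axonal clustering proteins), 0 rose and 2 fell on day 3, namely Cntnap2 (-0.28 ± 0.13) and Abcc8 (-0.36 ± 0.16), and 6 rose and 0 fell on day 6. Over all genes 3.64% rose and 0.807% fell on day 3, and 8.21% rose and 2.85% fell on day 6. The partner genes that rose were Cntn2 (0.34 ± 0.09), Cntnap1 (0.33 ± 0.09), Adam23 (0.42 ± 0.12), Dlg4 (0.28 ± 0.09), Lgi2 (0.42 ± 0.15) and Dpp6, a partner of Kcnd channels (0.25 ± 0.09). Of 16 potassium pump and cotransporter genes, 1 rose on day 3 and 3 on day 6, among them Fxyd7 (0.38 ± 0.10) and Atp1b1 (0.29 ± 0.11). Of 6 repressor genes that have been tied to Kcn silencing in sensory neurons, among them Rest and Ehmt2, 0 were called on either day.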

How the data were processed

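Total RNA of the TG was depleted of ribosomal RNA by the authors and sequenced from stranded libraries. Their methods name trimming with Trimmomatic, mapping to GRCm38 and CLC Genomics Workbench, and do not mention FPKM, while the submitters' processing notes name Bowtie 0.12.2 and mm8. The authors deposited FPKM values per transcript. Whether counting used strand is not given in the sources used here. The table of other non-coding RNAs was not used, and in the tables used 0 per-sample columns were left out. Transcripts were joined by name to GENCODE M21 (101539 of 102122 mRNA transcripts), and FPKM was summed per gene. Depth was estimated from the smallest spacing of FPKM multiplied by transcript length, which is the worth of 1 read pair.

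Differences were computed on log2(FPKM + 0.1). All 9 libraries entered 1 linear model with a term per group and no covariate (limma 3.58.1 in R 4.3.3, empirical Bayes with a trend). Fold changes are on that scale, which understates changes of low genes. A gene or transcript was tested where its average reached 0.1 FPKM. A call is an unadjusted p under 0.05, the authors' cutoff, and adjusted p-values are Benjamini-Hochberg over everything tested. The fit was tested on simulated data. With 3 pools against 3, an exact permutation test cannot go below p = 0.1.

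The members and the lists were chosen with earlier results of these data known. Named were the most abundant member of each subfamily, all called members, those with a known part in sensory neurons or glia, the 5 transcripts with the smallest p in each comparison, and the transcripts of Kcnt1 and Kcnn2. Some genes that the rule names enter the counts but are not reported here. Genes or transcripts beyond this rule were chosen after their values were seen. Promoter sequences are from RefSeq. As alternatives, the pseudocount was set to 0.01 or 1, the filter was raised to 1 FPKM or dropped, and the following were tried: quantile normalization, equal FPKM sums, a log2 fold change of at least 1, only the groups compared, the most abundant transcript per gene, a replicate block, and leaving out each library. Leaving out saline replicate 3 and CFA6D replicate 4 together was chosen after seeing the data.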

Additional observations from a re-analysis of the deposited data

How the results depend on the processing

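The pseudocounts of 0.01 and 1 left the counts of members as they were and gave 15 or 16, 20 or 23 and 7 or 8 transcripts in place of 16, 22 and 8. When a log2 fold change of 1 was required as well, 0 members passed in each of the 3 comparisons, and 6, 5 and 4 transcripts passed on day 3, on day 6 and between the days. The day 3 count of 8 members became 3 with quantile normalization and 5 with equal FPKM sums. Over all genes the day 3 count of 717 became 499 and 601 in these fits. The count of 2 members between the days became 5 with each of these and 5 with only the groups compared. Over all genes the count of 1193 between the days became 1389, 1302 and 1427. With a mean of at least 1 FPKM, 5, 12 and 5 transcripts passed in the 3 comparisons, against 16, 22 and 8. Between the days, 16 transcripts passed with no filter, 15 with only the groups compared and 5 without saline replicate 3 and CFA6D replicate 4. Leaving out 1 library gave 3 (without CFA3D replicate 3) to 12 (without saline replicate 1) members on day 3, where 694 and 1523 of all 16110 genes were called. On day 6 it gave 10 (without CFA6D replicate 4) to 19 (without saline replicate 1) members, where 1437 and 2003 genes were called. Between the days it gave 0 (without CFA6D replicate 6) to 6 (without CFA6D replicate 5) members, where 942 and 1284 genes were called. For transcripts the ranges were 12 to 21, 16 to 25 and 5 to 12. Matching counts over all transcripts are not given for these alternatives. The transcript counts of this section therefore cannot be set against a share over all transcripts. With the most abundant transcript in place of the sum, 7 of 83 members passed on day 3, where 808 of 15848 genes were called. On day 6, 11 members passed in place of 15, 8 higher and 3 lower (13.3%). In that fit 1632 genes were called on day 6, 1246 of them higher, and Kcnn1 reversed (-0.11). With only the groups compared, 6 members passed on day 3 and 11 on day 6, where 610 and 1512 of all 16110 genes were called.

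Saline and CFA3D share replicate numbers, but the deviations of same-numbered libraries correlated at 0.088, -0.078 and 0.030, so the numbers were not taken to pair them, and 1 of the 3 saline libraries correlated best with its own number. With the replicate number as a block, 4 members and 12 transcripts passed on day 3, where 498 of all 16110 genes were called. No count over all transcripts is given for that fit.

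The spread was estimated from 3 libraries a group. The cause of these shifts was not tested.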

Other observations

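The lncRNA table holds 5 antisense genes named after Kcn genes, which enter no comparison above. Kcnq1ot1, the imprinted transcript that runs opposite to Kcnq1, was the most abundant, at 2.56, 2.38 and 2.78 FPKM in saline, 2.61, 2.83 and 2.32 FPKM on day 3 and 2.27, 2.74 and 2.61 FPKM on day 6, and its groups overlapped. Kcnmb4os1, opposite to Kcnmb4, read 0.0827 to 0.179 FPKM in saline, 0.0490 to 0.137 FPKM on day 3 and 0.206 to 0.292 FPKM on day 6, so that the day 6 libraries lay above the other 6. These levels are low beside the 0.0237 to 0.0333 FPKM of 1 read pair over 1 kb, and the difference was not tested. Kcnmb4os2 ran from 0.0424 FPKM in CFA3D replicate 2 to 0.934 FPKM in saline replicate 3. Kcnab3os had its highest value, 0.541 FPKM, in saline replicate 3, as did Kcnab3, and Kcnd3os stayed between 0.589 and 1.13 FPKM.

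Of the 85 tested members, 11 were highest in CFA3D replicate 2, and no such count was made over all genes. Among them were Kcnj13 (7.97 FPKM, against at most 5.39 FPKM elsewhere), Kcnj2 (3.98 against at most 3.11 FPKM) and Kcne4 (2.39 against at most 1.88 FPKM). That library also had the highest sums of the macrophage (133 FPKM), endothelial (44.0 FPKM) and fibroblast (601 FPKM) marker lists.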
